A study of Saccharomyces cerevisiae with 24 samples.

Results

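The cyclin genes of budding yeast and CDC28, the gene of the cyclin-dependent kinase that they switch on, were followed as plasmids in a pooled competition under salt stress. The set was chosen by gene name, with earlier results of these data known. It held the G1 cyclins CLN1, CLN2 and CLN3, the S-phase cyclins CLB5 and CLB6, the mitotic cyclins CLB1, CLB2, CLB3 and CLB4, and CDC28, which are 10 genes. The count table names 4817 genes in 4871 rows. CLB5 was not analysed here. The other 9 genes each had 1 row, and each of these rows held reads in all 24 libraries, from a minimum of 1 read (CLB3) to a maximum of 15038 reads (CLN1). The plasmids are those of MoBY 2.0, a high-copy 2-micron collection in which every insert is 1 gene from strain S288C with its native upstream and downstream DNA and a barcode identifies the plasmid. The hosts were 4 diploid Saccharomyces cerevisiae strains. They were BY4743 (laboratory lineage, homozygous for his3Δ1, leu2Δ0 and ura3Δ0 and heterozygous for lys2Δ0 and met15Δ0), BC187 (Wine/European lineage), NCYC3290 (West African lineage) and YPS128 (North American lineage). Barcodes were sequenced at generation 0 (Gen0) and after 10 generations (Gen10) in rich YPD medium with 0.7 M NaCl at 30°C, in 3 replicates per strain and generation. All groups were kept in 200 mg/L G418, which selects for the plasmid, and each competition started from frozen pools of transformants. The paper describes NCYC3290 and YPS128 as salt-sensitive and states that the wild strains keep fewer copies of these plasmids than BY4743, so a comparison with BY4743 also compares copy numbers. Each strain still had its own chromosomal copies of the genes, and the expression from the plasmids was not measured here.

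Cdc28 is the kinase that drives the yeast cell cycle, and it has little activity until a cyclin binds it. Cln3 acts early in G1 and turns on transcription by the factors SBF and MBF. Cln1 and Cln2 then bring cells past the commitment point called Start, Clb5 and Clb6 fire DNA replication, and Clb1 to Clb4 build the spindle and drive mitosis, with Clb2 in the leading role. In high salt the stress kinase Hog1 holds cells for a time in G1 and in G2, in part through the Cdk inhibitor Sic1, lower levels of the G1 cyclins and the kinases Hsl1 and Swe1. These are properties of the native genes and are given as background. In the competition, a barcode that loses share of its library can reflect slower growth of the cells that carry it or fewer copies of the plasmid per cell, and these cannot be told apart.

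Because each plasmid insert includes the gene's own upstream sequence, the reference sequence was searched for the binding words of cell-cycle and stress transcription factors. The windows were the 800 bases before the start codon in the S288C assembly R64 of RefSeq, on both strands. The stretches of 200 bases that hold the G1/S words before CLN1, CLN2 and CLB6 are printed 5′ to 3′ on the strand of the gene, with MBF words (MCB, ACGCGT) and SBF words (SCB, CACGAAA or CGCGAAA) in capitals. That of CLN1 is chrXIII:661852-662051 on the plus strand, that of CLN2 is chrXVI:67021-67220 on the minus strand, and that of CLB6 is chrVII:706705-706904 on the minus strand.
CLN1: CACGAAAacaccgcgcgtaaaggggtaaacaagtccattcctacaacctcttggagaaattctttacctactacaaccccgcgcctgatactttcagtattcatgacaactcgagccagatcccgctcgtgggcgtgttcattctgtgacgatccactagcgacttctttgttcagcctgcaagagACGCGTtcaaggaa
CLN2: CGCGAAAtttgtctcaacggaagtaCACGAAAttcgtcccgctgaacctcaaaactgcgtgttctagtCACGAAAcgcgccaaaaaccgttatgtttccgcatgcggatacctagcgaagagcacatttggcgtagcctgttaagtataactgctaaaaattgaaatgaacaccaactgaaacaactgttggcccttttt
CLB6: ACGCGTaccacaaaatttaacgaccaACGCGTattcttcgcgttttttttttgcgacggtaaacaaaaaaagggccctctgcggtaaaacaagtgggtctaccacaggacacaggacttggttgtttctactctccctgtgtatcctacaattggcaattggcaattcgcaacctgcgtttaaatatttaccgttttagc
CLN1 had 1 SCB word at 792 and 1 MCB word at 606 bases before the start codon, CLN2 had 3 SCB words at 606, 581 and 538 bases, and CLB6 had 2 MCB words at 403 and 377 bases. An SCB word was also present before CLB4, at 698 bases. Of all 6016 such windows of protein-coding genes, 7.60% held an MCB word and 17.0% an SCB word. The forkhead word GTAAACA, found in 15% of windows, stood before CLB1 (628 bases), CLB2 (764 bases), CLB4 (161 bases), CLB6 (345 bases) and CLN1 (768 bases). The stress-response word CCCCT, found in 48.1% of windows, stood before CLN1 (772 and 369 bases), CLN3 (716 bases), CLB1 (658 bases), CLB2 (28 bases) and CDC28 (501 bases). In CLN1 the forkhead word and the stress word at 772 bases share 1 base. CLB3 had none of these words. A match is a run of letters in the reference window and was not tested as a site.

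Values are normalised reads, that is, reads of a barcode per 1000000 reads of a library total that leaves out the 25 rows with more than 50000 reads in any sample. The 24 libraries held between 4615027 and 30699608 reads in all. At Gen0 the scaling totals ran from 8407149 to 23477556 reads. At Gen10 they were at least 11962164 in BY4743 and BC187, but only 1679115 to 5010411 in YPS128 and 501261 to 1868859 in NCYC3290, where the left-out rows had taken most reads. The depth behind a member was therefore lowest in NCYC3290 at Gen10, where CLB6, CLB1, CLB3 and CLB4 had fewer than 20 reads in at least 2 of the 3 libraries. Replicates varied with a biological coefficient of variation of 0.126 (BY4743), 0.110 (BC187), 0.856 (NCYC3290) and 0.539 (YPS128). A log2 fold change is Gen10 over Gen0 within a strain, given with its standard error (SE) and its false discovery rate (FDR) over all genes tested, and an FDR under 0.05 counted as a call. The paper describes the replicates as biological, but no source says that they came from separate transformations. The tests therefore measure the spread between these samples, which may be technical in part.

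Most of the cyclin plasmids that changed lost share, and the gains were those of CLB1 in BY4743 and of CLN1 and CLN3 in NCYC3290. In BY4743, 5 of 9 members fell (CLN1, CLB2, CLB3, CLB4 and CDC28), where 19.5% of all 4186 genes tested fell, and 1 rose (CLB1), where 18.2% rose. In BC187, 6 of 9 fell (CLN1, CLB6, CLB1, CLB2, CLB3 and CDC28) and 0 rose, against backgrounds of 38.1% and 28.5% of 4166 genes. In NCYC3290, 3 fell (CLB6, CLB3 and CLB4) and 2 rose (CLN1 and CLN3), against 26.1% and 1.89% of 4171 genes. In YPS128, CLB4 fell and 0 rose, against 8.47% and 4.11% of 4157 genes. The median log2 fold change of the 9 members was -0.42 in BY4743, where that of all genes was 0.014, and -0.84 in BC187, where that of all genes was -0.05. In NCYC3290 both medians were -1.58, so the members as a group lay at the middle of the library, while single members lay near its ends. In YPS128 the median was -1.22 for the members and -0.56 for all genes. When all 24 samples were fitted together with 1 spread for the 4 strains, no member passed in BY4743 (FDR 0.59 to 1.0 for the members called above) or in BC187 (FDR 0.085 to 1.0). Few genes of any kind passed in that fit. Of 4215 genes, 1 rose and 69 fell in BY4743, and 48 rose and 334 fell in BC187. The fits of single strains share neither samples nor controls.

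**Figure D1:**
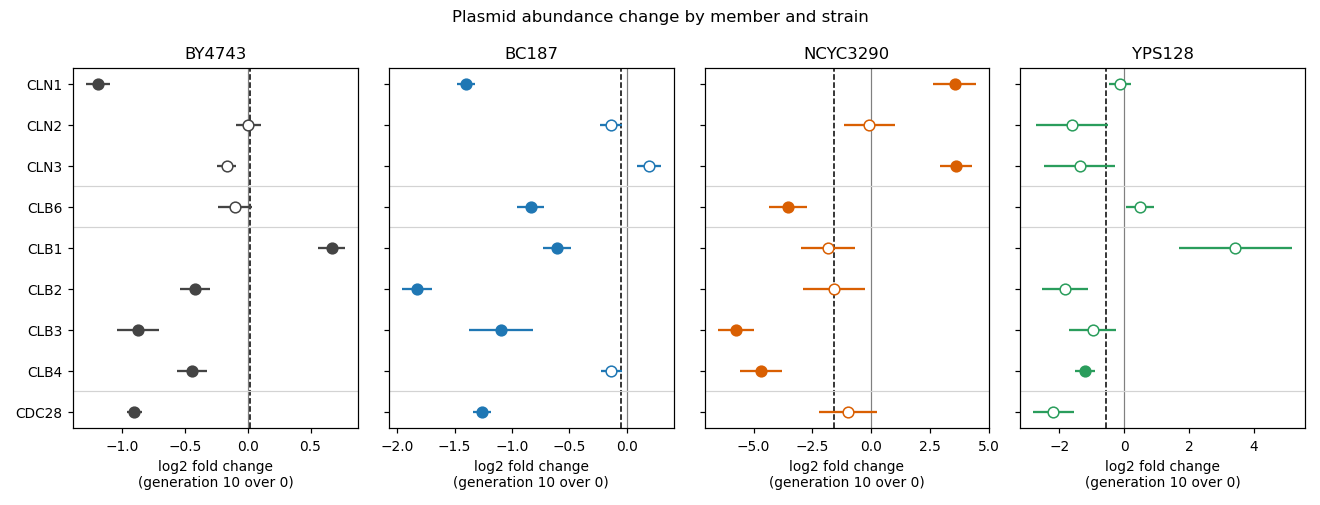
Log2 fold change of plasmid abundance (generation 10 over 0) of each member, 1 panel per strain, with the SE as bars; filled points passed the FDR threshold, the dashed line is the median of all genes and grey lines separate G1, S-phase and mitotic cyclins and the kinase. CLN1 and CLN3 lie at 3.54 and 3.58 in NCYC3290, far to the right of its median of -1.58, while CLB3 and CLB4 lie at -5.77 and -4.70.

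CLN1, a G1 cyclin gene (YMR199W, R64 chromosome XIII, 662644 to 664284, plus strand), was the most abundant member at Gen0 in every strain and changed in opposite directions in different strains. In BY4743 its normalised reads were 435, 523.6 and 512.5 at Gen0 and 196, 235 and 212 at Gen10. The Gen10 libraries all lay below the Gen0 libraries, as for 28.7% of genes, and the plasmid fell (log2 fold change -1.19, SE 0.096, FDR 9.4e-05). In BC187 the values were 657, 676 and 623 at Gen0 and 276, 228 and 237 at Gen10, again without overlap (as for 40.8% of genes), and it fell (-1.40, SE 0.075, FDR 8.7e-07). In NCYC3290 they were 468, 440.3 and 427 at Gen0 and 6698, 774 and 8047 at Gen10, so that all 3 Gen10 libraries were higher, but replicate 2 far less so than the others. Such a separation upwards was seen for 3.45% of genes in NCYC3290, and the plasmid rose (3.54, SE 0.92, FDR 0.026). This call was lost (FDR 0.056 to 0.11) without any single Gen0 replicate or without Gen10 replicate 1, with values of 3.31 to 3.58. In YPS128 the values overlapped, with 276, 464 and 475 at Gen0 and 228, 412 and 460.4 at Gen10 (log2 fold change -0.14, SE 0.34, FDR 0.78).

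CLN2 encodes the close relative of Cln1 that acts with it at Start (YPL256C, chromosome XVI, 64977 to 66614, minus strand), and it passed the test in none of the 4 strains. In BY4743 it had 298, 305 and 307 normalised reads at Gen0 and 345, 259.9 and 307 at Gen10, a log2 fold change of 0.003 (SE 0.10, FDR 0.98). In BC187 it had 180.2, 163 and 156 at Gen0 and 168, 139 and 145 at Gen10 (-0.14, SE 0.096, FDR 0.23). The groups overlapped in both strains. In NCYC3290 it went from 318, 342 and 358 to 33.8, 814 and 115, with replicate 2 above and the other replicates below every Gen0 value (-0.08, SE 1.1, FDR 0.96). In YPS128 it went from 67.2, 65.1 and 66.1 to 1.37, 52.7 and 10.1, where the lowest value rests on 3 reads (-1.61, SE 1.1, FDR 0.32). All Gen10 libraries were lower there, as for 45.1% of genes, but replicate 2 stood close to Gen0. Without Gen10 replicate 2 the YPS128 value was -3.56 (FDR 0.012).

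CLN3, the upstream G1 cyclin that sets the size at which cells pass Start (YAL040C, chromosome I, 65778 to 67520, minus strand), rose in NCYC3290 alone of the 4 fits. There it had 243, 233 and 214 normalised reads at Gen0 and 2830.0, 4050.0 and 1348 at Gen10 (3.58, SE 0.68, FDR 0.0080). The groups did not overlap, as for 3.45% of genes in this direction, and the lowest Gen10 value came from a library with 2519 reads of this barcode. The call was lost without any single Gen0 replicate (FDR 0.058 to 0.061, values 3.53 to 3.62). In BY4743 it had 258, 290.2 and 288 at Gen0 and 264, 236 and 245 at Gen10, which overlapped (-0.17, SE 0.075, FDR 0.11). In BC187 the values were 88.9, 94.7 and 92.0 at Gen0 and 117, 103 and 94.8 at Gen10, all just above Gen0, as for 31.3% of genes (0.19, SE 0.10, FDR 0.14). In YPS128 they were 34.1, 29.9 and 35.8 at Gen0 and 1.83, 31.7 and 4.17 at Gen10 (-1.38, SE 1.1, FDR 0.38). Replicate 2 alone remained at the Gen0 level, and without it the YPS128 value was -3.50 (FDR 0.0024).

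The gains of CLN1 and CLN3 in NCYC3290 are relative to the library without its dominant rows. As a share of all reads, CLN1 went from 0.0464%, 0.0436% and 0.0423% at Gen0 to 0.0291%, 0.00841% and 0.0592% at Gen10 in NCYC3290, and CLN3 from 0.0241%, 0.0230% and 0.0212% to 0.0123%, 0.0440% and 0.00991%. On this scale the groups overlapped for both genes. Scaled to all reads, the log2 fold change was -0.45 for CLN1 (FDR 0.57) and -0.05 for CLN3 (FDR 0.95), on a scale where the median of all genes was -5.37 in NCYC3290. Neither gene passed on that scale.

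**Figure D2:**
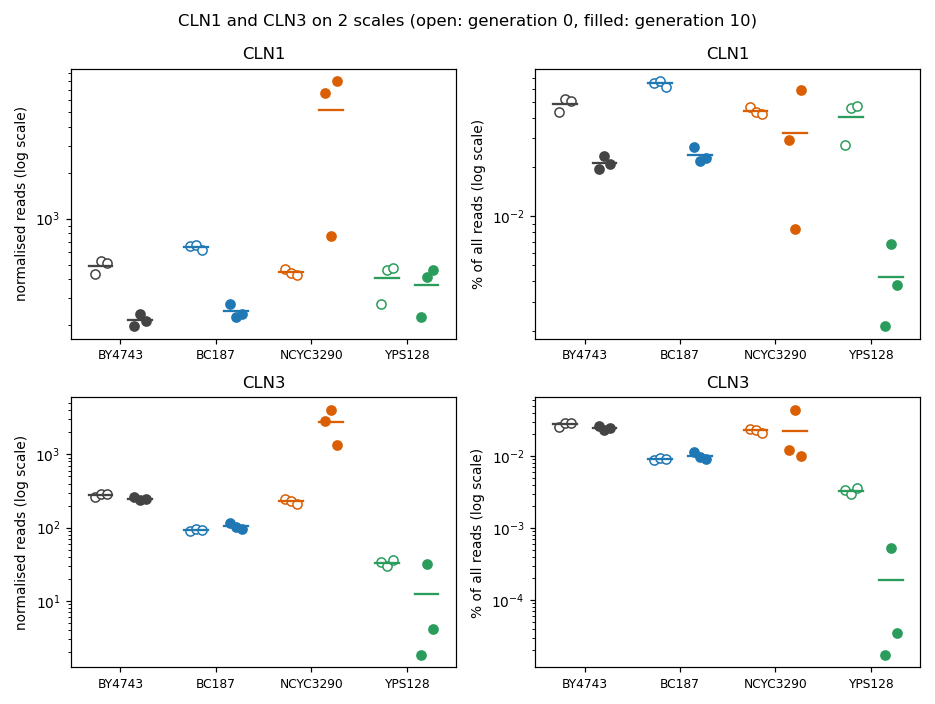
CLN1 (top) and CLN3 (bottom) in every library at Gen0 (open) and Gen10 (filled), as normalised reads (left) and as a percentage of all reads (right), both on log axes, with a bar at the mean of 3 replicates. In NCYC3290 all Gen10 points lie above Gen0 on the left, with means of 5173 and 2742, and straddle Gen0 on the right.

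CLB6 encodes an S-phase cyclin that is made late in G1 and destroyed early (YGR109C, chromosome VII, 705359 to 706501, minus strand). In BC187 its normalised reads were 168, 158 and 159 at Gen0 and 89.9, 76.6 and 105 at Gen10, lower without overlap as for 40.8% of genes in BC187, and it fell (-0.84, SE 0.12, FDR 0.00031). In NCYC3290 it went from 165, 165 and 164 to 8.26, 7.98 and 25.7 (-3.53, SE 0.82, FDR 0.016). Both groups of libraries were separate there, as they were for 60.0% of genes in this direction, and the Gen10 values rest on 11, 4 and 48 reads. That call was lost without any single Gen0 replicate (FDR 0.081 to 0.083) and when libraries were scaled by trimmed means of M values (TMM), which raise the NCYC3290 median by 2.06 (-1.47, FDR 0.22). In BY4743 it had 162, 167 and 184 at Gen0 and 177, 175 and 128 at Gen10 (-0.10, SE 0.13, FDR 0.60). In YPS128 it had 191, 181 and 177 at Gen0 and 426, 198 and 138 at Gen10 (0.48, SE 0.44, FDR 0.45), and the groups overlapped in both strains. No member was higher without overlap in YPS128, where 9.67% of genes were.

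CLB1, the mitotic cyclin gene most like CLB2 (YGR108W, chromosome VII, 703636 to 705051, plus strand), was the 1 member that rose in BY4743. Its normalised reads there were 169.6, 169 and 169 at Gen0 and 229, 273 and 305 at Gen10 (0.67, SE 0.11, FDR 0.0026), without overlap, as for 27.4% of genes in this direction. In BC187 they were 79.2, 80.6 and 73.4 at Gen0 and 47.1, 57.5 and 48.4 at Gen10, and the plasmid fell (-0.61, SE 0.12, FDR 0.0021). In NCYC3290 they went from 143, 134 and 146 to 11.3, 3.99 and 100.1, on 15, 2 and 187 reads (-1.85, SE 1.1, FDR 0.27). Replicate 3 stood apart from the other Gen10 libraries, and without it the value was -4.11 (FDR 0.0046). In YPS128 they went from 141, 83.9 and 79.8 to 5.95, 49.5 and 3223, on 13, 248 and 5411 reads. A single library, Gen10 replicate 3, set the fitted value of 3.43 (SE 1.7, FDR 0.20), which was -1.86 (FDR 0.20) without it. CLB1 and CLB6 lie end to end on chromosome VII with 307 bases between them, and where each cloned insert ends was not given in the sources used here.

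CLB2 encodes the main mitotic cyclin (YPR119W, chromosome XVI, 771653 to 773128, plus strand), and its plasmid fell in BC187 by the most of the 9 members. Its normalised reads in BC187 were 235, 263 and 242 at Gen0 and 84.0, 66.7 and 57.9 at Gen10 (-1.83, SE 0.13, FDR 5.1e-06). In BY4743 they were 281, 282 and 275 at Gen0 and 169, 234 and 223 at Gen10 (-0.42, SE 0.12, FDR 0.026), a smaller fall that was still without overlap, as for 28.7% of genes. The BY4743 call was lost without any single Gen0 replicate (FDR up to 0.084). In NCYC3290 they went from 285, 305 and 273 to 17.3, 3.99 and 265, where replicate 3 stayed near Gen0 (-1.58, SE 1.3, FDR 0.42, and -4.66, FDR 0.0071, without that library). In YPS128 they went from 237, 237 and 212 to 77.4, 104 and 11.3, all lower as for 45.1% of genes (-1.83, SE 0.72, FDR 0.12). The YPS128 value passed without Gen10 replicate 3 (-1.33) or without Gen10 replicate 2 (-2.35).

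CLB3, which acts in spindle assembly (YDL155W, chromosome IV, 176773 to 178056, plus strand), had the fewest reads at Gen0 of the members in every strain. Its 3 Gen10 values lay below its 3 Gen0 values in all 4 strains. Such a separation was common among all genes tested, with shares of 60.0% for NCYC3290 and 45.1% for YPS128. The share was lower for BC187 (40.8%) and lowest for BY4743 (28.7%). In BY4743 the normalised reads were 69.6, 65.6 and 69.8 at Gen0 and 30.4, 42.5 and 39.0 at Gen10 (-0.87, SE 0.16, FDR 0.0054). In BC187 they were 26.4, 28.4 and 36.0 at Gen0 and 16.2, 17.7 and 8.5 at Gen10 (-1.10, SE 0.28, FDR 0.0083). The plasmid thus fell in both. In NCYC3290 it fell from 88.8, 77.7 and 68.5 to 1.5, 2.0 and 1.07, which are 2, 1 and 2 reads (-5.77, SE 0.77, FDR 0.0063). From the summed reads, 4129 at Gen0 and 5 at Gen10, its level was 58.6 times lower at Gen10 (95% exact interval 25.1 to 181, which covers counting error only). In YPS128 the values were 17.7, 22.9 and 21.3 at Gen0 and 12.8, 10.8 and 7.74 at Gen10 (-0.98, SE 0.73, FDR 0.35).

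CLB4 is the relative of CLB3 (YLR210W, chromosome XII, 562008 to 563390, plus strand) and fell in 3 of the 4 strains, BC187 being the exception. In BY4743 its normalised reads were 274, 242 and 234 at Gen0 and 202, 196 and 154 at Gen10 (-0.44, SE 0.12, FDR 0.023). In NCYC3290 they went from 249.8, 262 and 236 to 10.5, 16.0 and 3.21, on 14, 8 and 6 reads (-4.70, SE 0.89, FDR 0.0080). In YPS128 they went from 295, 307 and 289 to 145, 143 and 93.5 (-1.22, SE 0.31, FDR 0.040), the 1 call among the members in that strain. The Gen10 libraries lay below Gen0 in all of these strains, as for 28.7% of genes in BY4743, 60.0% in NCYC3290 and 45.1% in YPS128. The BY4743 call was lost without any single Gen0 replicate (FDR up to 0.098), and the YPS128 call without any single Gen0 replicate or Gen10 replicate 1 (FDR 0.052 to 0.18) with TMM (-0.61, FDR 0.18), with DESeq2 (-0.60, FDR 0.14) and with voom (-1.19, FDR 0.13). With TMM the NCYC3290 value was -2.66 (FDR 0.071), and with limma voom and a weight for each group none of the falls of CLB6, CLB3 and CLB4 in NCYC3290 passed (FDR 0.16, 0.18 and 0.13). Hardly any gene could be called as falling with voom in NCYC3290 (10 of 4215, against 1087 of 4171 in the main fit). In BC187 the values overlapped, with 202, 224 and 178 at Gen0 and 175, 189 and 185 at Gen10 (-0.14, SE 0.091, FDR 0.21).

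CDC28 itself (YBR160W, chromosome II, 560078 to 560974, plus strand) fell in BY4743 and BC187 with little spread between replicates. In BY4743 its normalised reads were 278, 278 and 273 at Gen0 and 149.7, 147 and 146 at Gen10 (-0.90, SE 0.061, FDR 4.1e-05). In BC187 they were 300.5, 298 and 306 at Gen0 and 130.1, 113 and 134 at Gen10 (-1.26, SE 0.077, FDR 1.8e-06). Neither pair of groups came near to overlap, and Gen10 lay below without overlap for 28.7% of genes in BY4743 and 40.8% in BC187. In NCYC3290 they went from 328, 303 and 319.7 to 8.26, 47.9 and 423, with replicate 3 above Gen0 (-0.98, SE 1.2, FDR 0.59, and -3.55, FDR 0.028, without that library). In YPS128 they went from 277, 340.2 and 348 to 33.9, 144 and 32.8, all below Gen0 as for 45.1% of genes (-2.19, SE 0.62, FDR 0.056). That value passed with DESeq2 (-1.69, FDR 0.012), voom (-2.27, FDR 0.011), the joint fit (-2.19, FDR 0.045) and totals of all reads (-5.01, FDR 0.0021). With totals of all reads, however, 3906 of 4178 genes fell in YPS128, and the median of all genes was -3.65. Without Gen10 replicate 2 the YPS128 value was -3.27 (FDR 0.00054).

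**Figure D3:**
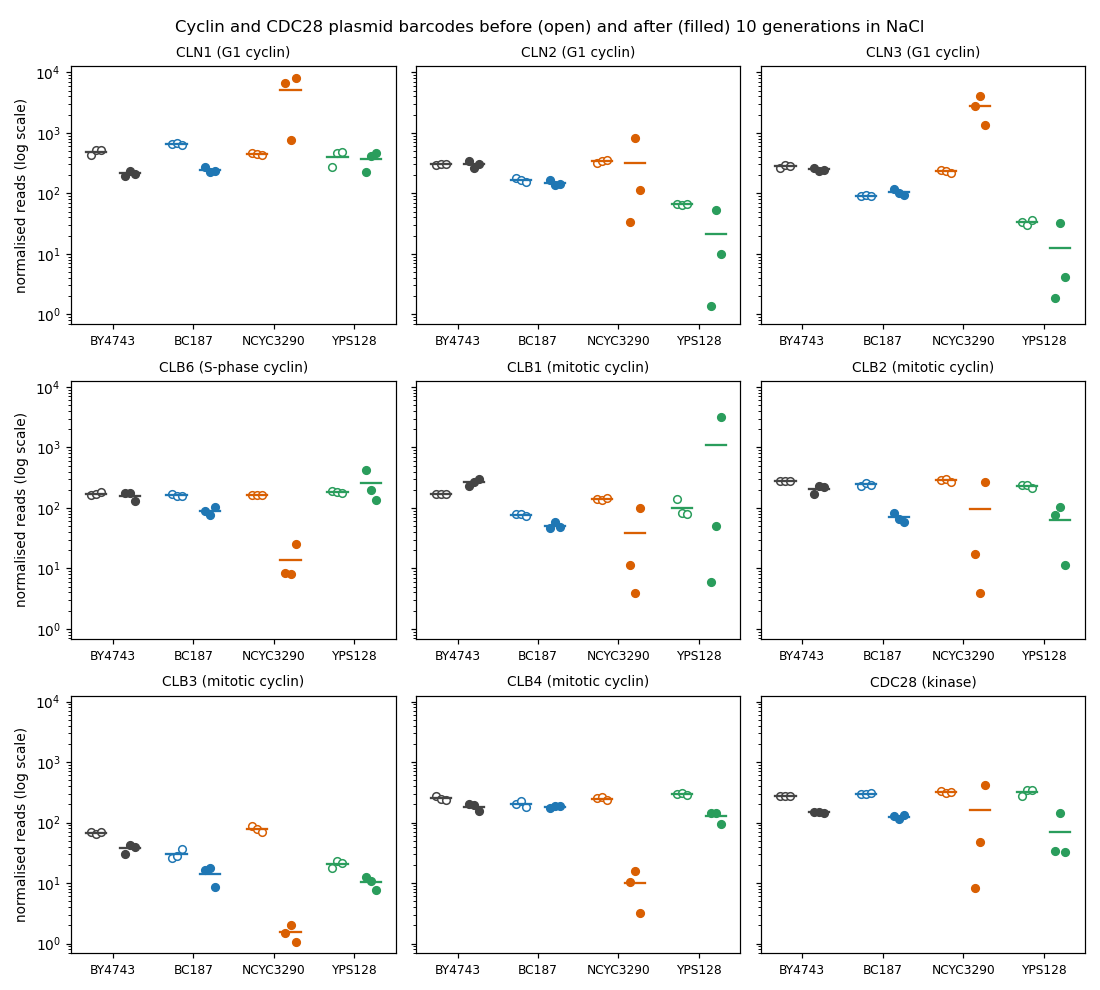
Normalised reads (log axis) of each of the 9 members in every library, at Gen0 (open) and Gen10 (filled) in the 4 strains, with a bar at the mean of 3 replicates. Gen10 points are tight and mostly lower in BY4743 and BC187, while in NCYC3290 they spread from 1.07 (CLB3) to 8047 (CLN1).

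The calls were also counted by class, to be read against the shares of all genes called in the same strain (those that fell were 38.1% in BC187, 26.1% in NCYC3290, 19.5% in BY4743 and 8.47% in YPS128). Those that rose were 28.5% in BC187, 1.89% in NCYC3290, 18.2% in BY4743 and 4.11% in YPS128. In BY4743, 3 of the 4 mitotic cyclins fell and 1 rose (median log2 fold change -0.43), while 1 of the 3 G1 cyclins fell (median -0.17). The S-phase cyclin CLB6 was not called there (-0.10). In BC187, 3 of 4 mitotic cyclins fell (median -0.85), 1 of 3 G1 cyclins fell (median -0.14) and the S-phase cyclin CLB6 fell. In NCYC3290, CLB6 fell (-3.53), 2 of 4 mitotic cyclins fell (median -3.28) and 2 of 3 G1 cyclins rose (median 3.54). The mitotic and G1 medians lay on opposite sides of the NCYC3290 library median of -1.58. However, CLB2 was at that library median and CLB1 close to it (-1.85), and no test was made between classes. In YPS128, 1 of 4 mitotic cyclins fell (median -1.10), 0 of 3 G1 cyclins were called (median -1.38) and CLB6 was not called (0.48).

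Whether the change of a member differed between strains was tested directly. In the joint fit of 24 samples, 5 of 9 members differed among the 4 strains, against 41.3% of 4215 genes: CLN1 (FDR 3.6e-05), CLN3 (FDR 0.00039), CLB6 (FDR 0.00013), CLB3 (FDR 7.5e-06) and CLB4 (FDR 3.7e-06). CLN2, CLB1, CLB2 and CDC28 did not pass (FDR 0.079 to 0.72). The joint fit gives all strains 1 spread, although their replicates differed.

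Between BC187 and BY4743, fitted on their 12 samples, 5 of 9 members differed, 4 lower in BC187 and 1 higher, where 29.2% of 4205 genes were lower and 15.5% higher. The difference was largest among the members for CLB2 (-1.40, SE 0.19, FDR 5.7e-05), which fell further in BC187. For CLB1, which rose in BY4743 and fell in BC187, it was -1.28 (SE 0.16, FDR 3.0e-05). CLB6 differed by -0.74 (SE 0.19, FDR 0.0072) and CDC28 by -0.36 (SE 0.10, FDR 0.011). CLN3 differed by 0.36 (SE 0.13, FDR 0.036), a call kept in 4 of the 12 fits that left out 1 library and lost in the others (FDR up to 0.093). With TMM the CDC28 difference was -0.22 (FDR 0.10). For CLN1, which fell in both strains, the difference was -0.21 (SE 0.13, FDR 0.21). In the joint fit none of these differences passed (FDR 1.0 for the 5 members).

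Between NCYC3290 and YPS128, 5 of 9 members differed too, 2 higher and 3 lower in NCYC3290, where 1.12% of 4184 genes were higher and 11.0% lower. CLN3 was higher by 4.94 (SE 1.2, FDR 0.016) and CLN1 by 3.68 (SE 0.96, FDR 0.026). Neither difference passed with totals of all reads (FDR 0.087 for CLN3 and 0.064 for CLN1). That of CLN1 was also lost with the replicate block (FDR 0.10), and that of CLN3 with voom (FDR 0.058). CLB3 was lower (difference -4.78, SE 1.0, FDR 0.011), as were CLB6 (-4.00, SE 0.94, FDR 0.016) and CLB4 (-3.50, SE 0.87, FDR 0.021). With TMM the calls of CLB3, CLB6 and CLB4 did not pass (FDR 0.056, 0.084 and 0.17). Every one of these calls was lost in some fits that left out 1 of the 12 libraries: it was kept in 11 of 12 fits for CLN3, 9 for CLB6, 9 for CLB3, 6 for CLB4 and 5 for CLN1. The FDR reached 0.050 to 0.081 in those fits. CLB1, which had 1 extreme YPS128 library, differed by -5.27 without passing (SE 2.2, FDR 0.15).

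A rank compares a member with the other genes of the same library. As a percentile of the fitness score (log2 of the Gen10 over the mean Gen0 level, with 1 normalised read added to each) among the 4140 genes tested in all strains, CLN1 was at 6.67, 6.04 and 4.90 in BY4743 and at 13.2, 11.2 and 11.9 in BC187, near the low end. In NCYC3290 it was at 99.0, 91.9 and 99.1, and in YPS128 at 49.3, 71.0 and 76.5. CLN1 thus moved from the low end in BY4743 and BC187 to the high end in NCYC3290. CLN3 was at 98.8, 99.2 and 97.3 in NCYC3290, against 44.3, 27.3 and 28.6 in BY4743. CLB1 was at 89.3, 97.6 and 99.1 in BY4743 and at 21.6, 30.4 and 23.6 in BC187. CLB3 was at 7.68, 17.0 and 17.0 in NCYC3290 and at 8.38, 11.2 and 8.45 in BY4743, low in both strains. CDC28 was at 7.03 to 11.3 in BY4743 and 11.9 to 15.3 in BC187, whereas in NCYC3290 it ran from 5.94 to 85.3.

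**Figure D4:**
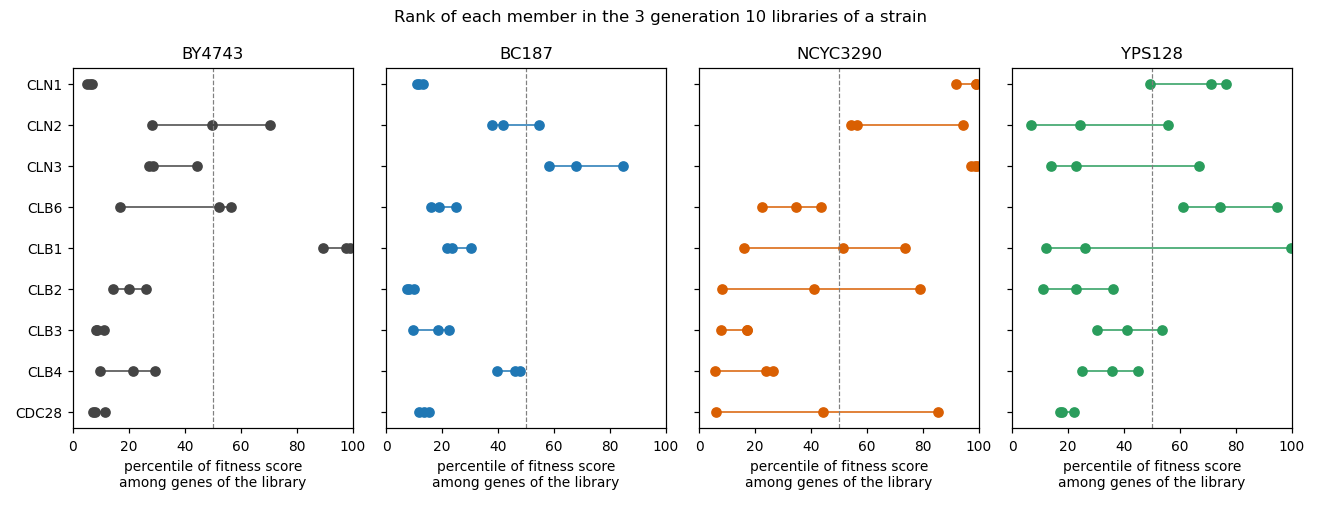
Percentile of each member's fitness score among the genes of the library, with 1 point for each of the 3 Gen10 replicates, a line over their range and a dashed line at the middle of the library. CLN1 and CLN3 lie at 91.9 to 99.2 in all NCYC3290 replicates, while CLB1, CLB2 and CDC28 spread widely in that strain.

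The members did not start from equal levels. At Gen0, CLN1 was the most abundant and CLB3 the least abundant of the 9 barcodes in each strain, with means of 490.3 ± 48 (SD, n = 3) and 68.3 ± 2.3 normalised reads in BY4743, and 405 ± 112 and 20.6 ± 2.6 in YPS128. CLN3 began at 279 ± 18 in BY4743 and 229.8 ± 15 in NCYC3290, but at 91.9 ± 2.9 in BC187 and 33.3 ± 3.0 in YPS128. CLN2 likewise ran from 66.1 ± 1.1 in YPS128 to 339 ± 20 in NCYC3290. CDC28 was alike in the 4 pools, from 276 ± 2.9 in BY4743 to 322 ± 39 in YPS128. All changes above were taken within a strain.

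Other genes of the cell-cycle engine were read from 6 lists of 49 genes (regulators of Cdc28, G1/S and mitotic transcription factors, the machinery that destroys cyclins, the kinase Pho85 with its cyclins, and the Cdks and cyclins of transcription). These held 40 rows, of which 31 or 32 were tested per strain. In BY4743, 3 of 32 rose and 10 fell, where 18.2% and 19.5% of all genes did. In BC187, 8 of 31 rose and 13 fell (all genes 28.5% and 38.1%). In NCYC3290, 0 of 31 rose and 8 fell (1.89% and 26.1%), and in YPS128 1 of 31 rose and 5 fell (4.11% and 8.47%). The shares in BC187 and the share that fell in NCYC3290 were near those of all genes. Among the regulators of Cdc28, CDC14, the phosphatase that reverses Cdk phosphorylation at mitotic exit, fell by 6.06 on the log2 scale in BY4743, by 7.98 in BC187 and by 4.79 in YPS128. In BC187 it had at most 7 reads at Gen10. The YPS128 call of CDC14 was kept in 2 of the 6 fits that left out 1 library. SIC1, the inhibitor of Clb-Cdc28, fell in NCYC3290 (-4.04, SE 0.91, FDR 0.014), a call kept in 3 of 6 such fits and lost with TMM and voom. Of all genes in NCYC3290, 308 of 4171 fell with TMM and 10 of 4215 with voom.

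Of the 5 tested rows of G1/S transcription genes, 0 rose in any strain, and 1 fell in YPS128, 2 in NCYC3290, 3 in BC187 and 4 in BY4743. BCK2, which activates G1 transcription beside CLN3, fell by 2.04 in BY4743, by 2.18 in BC187 and by 3.53 in YPS128, the YPS128 call being kept in 2 of 6 fits that left out 1 library. SWI4, the DNA-binding subunit of SBF, fell by 1.36 in BY4743 and by 2.84 in BC187. In NCYC3290 SWI6, the subunit shared by SBF and MBF, fell by 4.42 and its partner STB1 by 5.41, on at most 21 and 8 reads per Gen10 library. Both calls were lost with TMM (FDR 0.093 and 0.059) and with voom, which called 10 of 4215 genes as falling in NCYC3290. STB1 also fell in BY4743 (-0.44) and BC187 (-1.05). The list median over 5 tested rows was -2.25 in NCYC3290 (all genes -1.58), -1.06 in YPS128 (all genes -0.56), -1.05 in BC187 (all genes -0.05) and -0.44 in BY4743 (all genes 0.014). Of the mitotic transcription genes, SWI5 rose in BC187 (0.18, SE 0.053, FDR 0.016), a call kept in 4 of 6 fits that left out 1 library and lost with totals of all reads, the joint fit and voom (FDR 0.057, 1.0 and 0.077). CDC34, the ubiquitin-conjugating enzyme of the SCF complex that marks Sic1 and the Cln proteins, fell in all 4 strains, by 3.42 in NCYC3290, 3.05 in YPS128, 0.54 in BY4743 and 0.50 in BC187. The YPS128 call of CDC34 was kept in 1 and the NCYC3290 call in 3 of the 6 fits that left out 1 library. The NCYC3290 call was lost with TMM (-1.41, FDR 0.26), DESeq2 and voom.

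The cyclins of other kinases moved in both directions. PCL1, a G1 cyclin of Pho85, rose in BY4743 (1.04, SE 0.066, FDR 3.1e-05) and BC187 (0.65, SE 0.15, FDR 0.0043) and fell in NCYC3290 (-3.57, SE 0.88, FDR 0.021). The NCYC3290 call of PCL1 was kept in 3 of 6 fits that left out 1 library and lost with TMM (FDR 0.21), DESeq2 and voom. Voom called 10 of 4215 genes as falling in NCYC3290. PCL5, the Pho85 cyclin that marks Gcn4 for destruction, rose in YPS128 (3.63, SE 0.38, FDR 0.0021), BC187 (2.27, SE 0.10, FDR 3.9e-07) and BY4743 (0.70, SE 0.11, FDR 0.0029). PHO80, the cyclin of phosphate control, fell by 1.02 in BY4743, by 2.51 in BC187 and by 3.28 in YPS128. PCL8, a Pho85 cyclin of glycogen control, fell by 0.70 in BY4743, by 2.30 in BC187 and by 6.39 in NCYC3290. The NCYC3290 value of PCL8 rests on at most 5 reads per Gen10 library, and the call was lost with voom. SSN8, the cyclin C of the Mediator kinase module, fell by 2.71 in BY4743, by 6.18 in BC187 and by 3.59 in YPS128, while its kinase SSN3 rose by 0.21 in BY4743 (SE 0.067, FDR 0.042) and by 0.27 in BC187 (SE 0.088, FDR 0.024). The BY4743 call of SSN3 was kept in 2 of 6 fits that left out 1 library and lost with the replicate block and voom. The YPS128 calls were kept in 3 of these fits for PHO80 and in 2 for SSN8, and that of PCL5 in all 6 but not when scaled to all reads (0.37, FDR 0.18). In the joint fit of 24 samples the BY4743 calls named from these lists were lost (FDR 0.16 to 1.0 for those ranked in the top 2 of a list), except that of CDC14. That fit called 1 gene up and 69 down of 4215 in BY4743.

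The patterns most like those of 2 members were read from the 12 fitness scores of the 4140 genes tested in all strains, as a description. For CLB3, the member with the lowest mean log2 fold change over the strains (-2.18), the closest were POR2 (r = 0.983), BUD21 (r = 0.981) and the row HSL7_2 of HSL7 (r = 0.980). HSL7, a partner of Hsl1 in the control of Swe1, had 2 rows. All 3 had their lowest value in NCYC3290, at -4.27, -3.68 and -5.35. Outside NCYC3290 they did not share the falls of CLB3, which was at -0.87 in BY4743, -1.10 in BC187 and -0.98 in YPS128. In these strains POR2 was at 0.13, 0.27 and -0.02, BUD21 at 0.34, 0.07 and -0.05, and HSL7_2 at -0.05, -0.23 and -0.18. The other row of HSL7, HSL7_1, did fall in BC187 (-1.60, SE 0.072, FDR 3.6e-07), so the rows of this gene differed there. That call was kept in 6 of 6 fits that left out 1 library and lost in the joint fit. For CLN3, the member with the highest mean (0.55), the closest were SPT16 (r = 0.980), a histone chaperone subunit, BMH2 (r = 0.960), a 14-3-3 protein, and AUR1 (r = 0.943). Their NCYC3290 values were 4.23, 4.61 and 1.13. In BC187 they were at 1.35, 0.60 and -1.03, where CLN3 was at 0.19. In YPS128 they were at -1.61, -2.4 and -1.28 (CLN3 -1.38), and in BY4743 at -0.20, -0.51 and -0.44 (CLN3 -0.17). The 12 scores share the Gen0 mean of each strain and the library of each replicate.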

How the data were processed

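Barcodes of MoBY 2.0 plasmids were measured in 24 samples of 8 groups, mapped from the sample titles. Per the labels and methods, plasmids were isolated from cell pellets, and barcodes were amplified with indexed primers and sequenced in single-end reads. The deposited values are raw read counts per barcode, with no normalisation by the authors. The tool that assigned reads to barcodes is not given in the sources used here. No molecular identifiers were used, so intervals cover counting error only. Of the columns, 0 were left without a sample. The members and the other gene lists were chosen with earlier results of these data known.

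Libraries were scaled, after the study's methods, by the total over rows that exceeded 50000 reads in no sample (25 rows left out of the total, not of the tests). Each strain's 6 samples were fitted with edgeR 4.0.16 (R 4.3.3) by quasi-likelihood after filterByExpr with a minimum count of 10, with Benjamini-Hochberg adjustment over all rows tested. The SE was the absolute log2 fold change over the square root of F. Strain differences were tested in a joint fit of 24 samples and in fits of 12 samples per pair of strains. The study's own addition of 1 count to lost barcodes was not made. The alternatives were TMM factors, totals of all reads, DESeq2 1.42.0, no filter, a replicate block, the joint fit, limma 3.58.1 voom with group weights, and leaving out each library. Scripts were tested on simulated data with 200 changed genes per fit. Log2 changes of 2 were recovered for 100% of these in BY4743 and BC187, but for 21% in YPS128 and 0% in NCYC3290. Changes of 5 were recovered for 100% in YPS128 and 84% in NCYC3290. At a change of 2, the joint fit recovered 5% and the fit of NCYC3290 and YPS128 0%. A missing call in these fits therefore does not show that a plasmid kept its share.

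Replicate libraries differed by more than sampling noise (chi-square per degree of freedom 5.13 to 1111), so all were kept as separate replicates. Symbols and positions came from RefSeq R64 by systematic name (4811 of 4817 names matched). All members were named in every strain. From each other list, at most the 2 called rows of largest absolute change per strain were chosen, with calls of the same gene in other strains beside them, and for likeness the 3 closest genes to the members of lowest and highest mean change. Summaries were made in Python 3.11.15 (scipy 1.17.1).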

Additional observations from a re-analysis of the deposited data

Results flagged for a closer look

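A difference between strains in the change from Gen0 to Gen10, tested directly, marked 8 of the 9 members for a closer look. A member was marked if it passed any of the tests below, and the share of all genes that did so was not counted. In the joint test over the 4 strains these were CLN1 (FDR 3.6e-05), CLN3 (FDR 0.00039), CLB6 (FDR 0.00013), CLB3 (FDR 7.5e-06) and CLB4 (FDR 3.7e-06), against 41.3% of all genes at an FDR under 0.05. Between BC187 and BY4743 the log2 fold changes of CLN3 (0.36), CLB6 (-0.74), CLB1 (-1.28), CLB2 (-1.40) and CDC28 (-0.36) differed, where 29.2% of all genes were lower and 15.5% higher in BC187. Between NCYC3290 and YPS128 those of CLN1 (3.68), CLN3 (4.94), CLB6 (-4.00), CLB3 (-4.78) and CLB4 (-3.50) differed, where 11.0% of all genes were lower and 1.12% higher in NCYC3290. CLN2 is the member for which no such difference passed. BY4743 carries more plasmid copies than BC187 per the paper, and copy number and strain cannot be told apart in that pair.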

How the results depend on the processing

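In the fits of each strain, the calls of CLN1, CLB1, CLB3 and CDC28 in BY4743, of all 6 members in BC187 and of CLB3 and CLB4 in NCYC3290 passed in every fit that left out 1 library. Leaving out 1 library gave 4 to 7 members called in BY4743, 6 to 7 in BC187, 2 to 8 in NCYC3290, 0 to 5 in YPS128, 5 to 8 differing between the strains, 4 to 5 between BC187 and BY4743 and 1 to 6 between NCYC3290 and YPS128. With the joint fit, 0 members were called in BY4743, 0 in BC187, 3 in YPS128 and 0 between BC187 and BY4743. Of all 4215 genes, that fit called 1 up and 69 down in BY4743 and 48 up and 334 down in BC187. In YPS128 it called 183 up and 896 down. With TMM factors 3 were called in NCYC3290, 0 in YPS128 and 2 between NCYC3290 and YPS128. Of all genes, TMM called 173 up and 308 down of 4171 in NCYC3290, and 432 up and 198 down of 4160 in YPS128. With totals of all reads 8 were called in YPS128, 9 differed between strains and 3 between NCYC3290 and YPS128. On that scale 3906 of 4178 genes fell in YPS128 and 16 rose, so the count there is not particular to the members. With voom, 2 were called in NCYC3290 and 1 between NCYC3290 and YPS128. Of all 4215 genes, voom called 86 up and 10 down in NCYC3290.

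No pairing by replicate number was seen: deviations of same-numbered Gen0 and Gen10 samples correlated at -0.42 to 0.12 over 12 pairs, and 2 of 12 Gen10 samples were closest to their own number. This cannot exclude pairing, because in NCYC3290 and YPS128 the Gen10 replicates differed far more than the Gen0 replicates. With the replicate block, 1 member differed between NCYC3290 and YPS128, and the block moved CLN1 in NCYC3290 to an FDR of 0.052, CLB4 in YPS128 to 0.070 and CDC28 in YPS128 to 0.016.

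The direction turned for values that had not passed, and for CLN1 and CLN3 in NCYC3290 with all reads (-0.45 and -0.0459). CLN2 in BY4743 was -0.0021 with all reads, -0.0064 with the block and -0.0039 with voom. In NCYC3290, where TMM and DESeq2 raised the median of all genes by 2.06 and 2.33, they gave 1.84 and 2.11 for CLN2, 0.21 and 0.29 for CLB1, 0.47 and 0.49 for CLB2 and 1.05 and 1.04 for CDC28. In YPS128 they gave 0.47 and 0.49 for CLN1. All reads gave -2.69 for CLB6 in YPS128, which passed on that scale (FDR 0.0037). The YPS128 median of all genes was -3.65 there, so CLB6 lay above it. CLB1 in YPS128 was -0.14 with all reads, -0.39 with the block and -0.31 with voom. For CLB2, NCYC3290 minus YPS128 was -0.61, -1.18 and -0.68 in these fits. The cause was not tested.

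Leaving out 1 library turned uncalled values. The ranges in BY4743 were -0.0959 to 0.10 for CLN2 and -0.18 to 0.0399 for CLB6, in NCYC3290 -2.19 to 0.45 for CLN2, and in YPS128 -0.36 to 0.11 for CLN1, -0.12 to 0.77 for CLB6 and -1.86 to 4.01 for CLB1. BC187 minus BY4743 ran from -0.41 to 0.0381 for CLB3. NCYC3290 minus YPS128 ran from -0.58 to 3.46 for CLN2, -7.51 to 0.014 for CLB1, -2.82 to 0.80 for CLB2 and -1.38 to 2.29 for CDC28. For CLB3 in NCYC3290, with 5 reads at Gen10, counting error alone allows a fall of 25.1 to 181 times.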
